A study of Mus musculus with 8 samples.

Results

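Mouse embryonic stem (ES) cells that had been driven towards ventral forebrain with SAG, a small molecule that switches on Hedgehog signalling, and then sorted for RAX, were compared with cells grown under the Wnt inhibitor alone. The samples were chosen by their labels: 1 array of the SAG RAX-positive cells and 1 array of the Wnt inhibitor (Wi) control, 2 of the 8 arrays of the series. The SAG RAX-positive cells were of the line K/l-EB5, in which GFP reports Rax. They received the Wnt inhibitor IWR-1-Endo at 5 µM from day 3 and SAG at 100 nM starting 12 h later, and GFP-positive cells were collected with a cell sorter at 10 days in vitro (10DIV). The Wi control was E14Tg2A at 10DIV with IWR-1-Endo and no SAG, and its labels name no sort. Both lines are male and of 129/Ola background, and both went through the same neural culture, first as floating aggregates and then attached to laminin in a chemically defined medium. Each array carried RNA pooled from 3 sets of experiments, and a group is therefore a single array without replication. The other 6 arrays held the SAG RAX-negative cells, the RAX-positive and RAX-negative cells of cultures given activin at 10 ng/ml instead of SAG, and cortex, diencephalon/hypothalamus and eye of E12.5 embryos of the strain Sv129s6, from 3 embryos. Besides SAG, the line, the sort and the slide differed between the SAG RAX-positive cells and the Wi control, and these cannot be told apart.

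Rax is a homeobox gene of the anterior neural plate that is needed for the eye field and is also active in the ventral diencephalon, where the hypothalamus forms. Sonic hedgehog, secreted by the midline below the forebrain, is received through Ptch1 and Smo and acts through the GLI factors, and it specifies the hypothalamus, in which Nkx2-1 is a defining transcription factor. Without ventral signals and with Wnt signalling blocked, ES-derived neural cells tend towards the dorsal telencephalon, marked by Emx1 and Emx2.

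The probes of the genes on which the comparison turns are given first, with their place on mm9, since each level below is the signal of 1 such 60-base oligonucleotide. The homeoboxes of Nkx2-1 and Nkx2-4 are closely alike, and whether Nkx2-1 RNA adds to the Nkx2-4 signal was not tested. The first 30 bases of each probe are shown. The files do not say in which part of the transcript a probe lies.
Nkx2-1 (chr12:57633119-57633178): agttggactaaatgcctagtttttagtaac
Six6 (chr12:74045825-74045884): tgacctagactgcgttaaattcgaggcagt
Hmx2 (chr7:138700012-138700071): cttgaggatgggtaggggcaaaacgaggag
Hmx3 (chr7:138688330-138688389): atttgaggcgcttctcctcttatttttggt
Shh (chr5:28783983-28784042): aatttattattgtgtgaactgtactcacag
Gli2 (chr1:120731255-120731314): aggcattgattcttggactttgaggaactc
Emx1 (chr6:85154062-85154121): aatgactaggggaacaatcaagagcccaca
Neurod6 (chr6:55628006-55628065): agggacaaaaataagtgtattcagttggta
Trh (chr6:92192061-92192120): ggggtcacatcttgtatataaccctgctct

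Levels are log2 signals relative to the 75th percentile of the same array, so a level of 0 is a signal equal to that percentile, and levels of different genes are not comparable because each has its own probe. A gene was called higher or lower in the SAG RAX-positive cells when the log2 difference reached 1 and the brighter array was well above background. With 1 array a side there is no test and no p-value. The scanner's own error model put the error of a difference at a median of 0.204 (log2) for genes above background on both arrays, and this error leaves out the spread between cultures. Where the dimmer array was not well above background, the fold is a bound. It was taken against the gene's own signal there or the array's lowest well-above-background signal among the probes used for genes, whichever was higher. Such bounds hold for this processing only.

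Of 34652 gene names, 27248 were detected. Of these, 5722 (21%) were higher in the SAG RAX-positive cells and 5236 (19.2%) were lower, together 40.2%, with a median difference of 0.08. With folds that are bounds counted at their bound, differences of at least 10-fold ran mostly one way, with 184 genes higher and 769 lower. The Wi control level was not well above background for 1853 of all higher genes. The SAG RAX-positive level was not for 1258 of all lower genes. The floor of the bounds was also higher on the Wi control array, which limits the higher folds more. The part of this rule in the 10-fold split was not tested. Spots well above background made up 70.52% on the SAG RAX-positive array and 67.55% on the Wi control array. The Wi control was the only array on its slide, and the other 7 arrays shared the other slide. Spike-in RNAs had a median intensity of 4878 on the SAG RAX-positive array and 421.5 on the Wi control array, and the slope of the spike-in curve was 0.888, outside the scanner software's range, and 0.997, inside it. Among olfactory and vomeronasal receptor genes, which forebrain cells are not known for, 157 of 373 detected genes were higher and 68 were lower. The part of these array differences in the low-level calls was not tested.

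**Figure D1:**
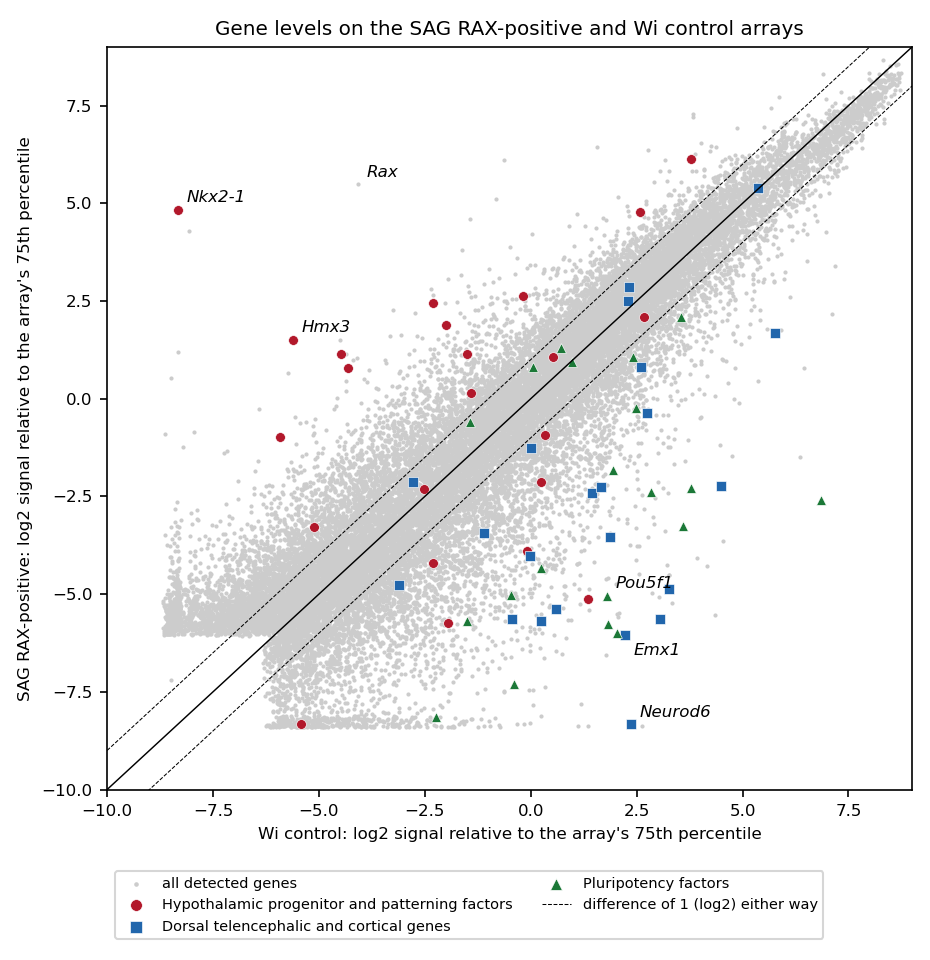
Log2 level of each detected gene on the SAG RAX-positive array (vertical) against the Wi control array (horizontal), each relative to that array's 75th percentile, with 3 gene lists coloured and dashed lines at a difference of 1 either way. Nkx2-1 (4.82 against -8.33) and Rax (5.49 against -4.08) lie far above the diagonal, and most dorsal telencephalic and pluripotency genes lie far below it.

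Rax itself, the gene whose reporter was used for the sort, had a level of 5.49 in the SAG RAX-positive cells and -4.08 in the Wi control, 755-fold higher. Since the sort used Rax, this difference is not a result. It cannot check the sort either, because the SAG RAX-negative cells also lay 7.155 (log2) above the Wi control. The SAG RAX-positive cells were 2.405 (log2) above the SAG RAX-negative cells. On the other sorted arrays Rax stood at 3.08 in the SAG RAX-negative cells and 5.45 in the activin RAX-positive cells, so the RAX-negative gate retained Rax RNA and the Wi control held little.

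Of the 32 gene lists, hypothalamic progenitor genes had the highest median difference. Of 23 detected, 13 were higher in the SAG RAX-positive cells and 7 were lower, where 21% and 19.2% of all detected genes were, and the list's median difference was 1.84 against 0.08 over all detected genes. The counts of every list below are to be read against these same shares. Nkx2-1 had the largest difference of all named genes: 4.82 in the SAG RAX-positive cells against -8.33 in the Wi control, where it was not well above background, which makes it at least 2288-fold higher. Sfta3-ps, a non-coding RNA gene that lies next to Nkx2-1 in the RefSeq annotation, was at least 1587-fold higher, with levels of 4.29 and -8.07. Hmx3 and Hmx2, homeobox genes that act together in the hypothalamus, were 138-fold and 30.9-fold higher. Hmx3 had levels of 1.503 in the SAG RAX-positive cells and -5.61 in the Wi control. Hmx2 had -0.97 and -5.92. Nkx2-4, the close relative of Nkx2-1, was 49.1-fold higher, at 1.14 against -4.48. In the Wi control all 5 stood at -4.48 or lower.

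Among the other higher members, Fgf10, a growth factor of the infundibulum, was 33.9-fold higher (0.78 against -4.30). The forkhead genes Foxd2 and Foxd1 were 27.2-fold and 14.7-fold higher. Fezf1, a zinc finger factor of the ventromedial hypothalamus, was 6.97-fold higher, and Sox3, needed for the hypothalamus and pituitary, was 5.16-fold higher. The lower genes included Wnt8b, Lhx9, Rgcc, Irx5, Barhl1 and Barhl2. Wnt8b, a Wnt ligand, had levels of -5.12 in the SAG RAX-positive cells and 1.35 in the Wi control, 89-fold lower. Lhx9, which marks the posterior hypothalamus among other sites, was 14.1-fold lower. Foxb1, a mammillary gene, was within the threshold, at 1.06 against 0.53. The GLI consensus GACCACCCA was searched on both strands in the 300-base RefSeq promoter windows (GRCm38.p6) of the genes of the hypothalamic progenitor, eye field and Hedgehog lists: none of 67 windows of 54 genes held these letters, against 0.253% of 32851 windows in all. At so low a share, no match in 67 windows is likely for any set of genes, so nothing is concluded from it.

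Genes of the differentiating hypothalamus were divided. Of 24 detected, 7 were higher and 9 lower, with a median of -0.27. Prdm12 and Prdm13, chromatin regulators of hypothalamic neuron precursors, were 22.4-fold and 19.8-fold higher. Isl1, a LIM homeobox gene of arcuate precursors, had 2.26 in the SAG RAX-positive cells and -1.25 in the Wi control, 11.4-fold higher. Nr5a1, which encodes SF-1 of the ventromedial nucleus, was 8.35-fold higher at 1.23 against -1.83. Most peptide genes were lower or within the threshold, with Gnrh1, at least 4.20-fold higher from a low level (-4.26 against -6.56), as the exception. Trh, the thyrotropin-releasing hormone precursor, had -5.53 in the SAG RAX-positive cells and 4.35 in the Wi control, 944-fold lower. Npy, Sst and Cartpt were 15.8-fold, 14.96-fold and 14.1-fold lower. Pomc, the melanocortin precursor, differed by less than the threshold, at -0.23 against 0.03, and so did Oxt and Agrp. Trh was also high, at 6.58, in the activin RAX-negative cells of the K/l-EB5 line.

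**Figure D2:**
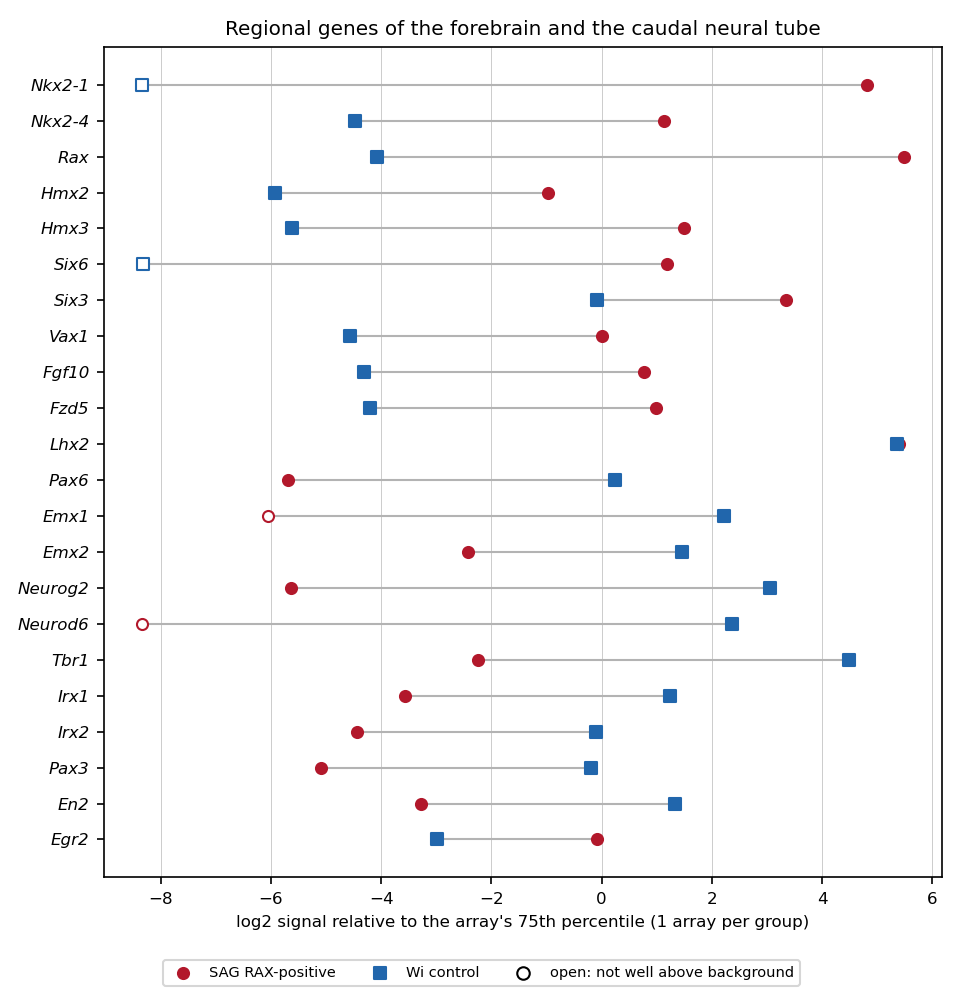
Log2 levels of 22 regional genes in the SAG RAX-positive cells (circles) and the Wi control (squares), relative to each array's 75th percentile, with open symbols where the probe was not well above background. From Nkx2-1 to Fzd5 the SAG RAX-positive level is the higher, Lhx2 is equal (5.39 against 5.36), and from Pax6 to En2 the Wi control level is the higher.

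Eye field and retinal progenitor genes were divided. Of 18 detected, 6 were higher in the SAG RAX-positive cells and 5 lower, and the median difference was -0.23. Six6, a homeobox gene shared by the retina and the hypothalamus, had 1.19 in the SAG RAX-positive cells and -8.32, not well above background, in the Wi control, at least 184-fold higher. Six3, which specifies the anterior forebrain, was 10.71-fold higher (3.34 against -0.08), and Six3os1, transcribed opposite to it, was 61.3-fold higher. Since the array's strand design was not examined here, these are reported as the annotation names them. Fzd5, a Frizzled receptor of the eye field and hypothalamus, was 36.5-fold higher with 0.99 against -4.20, although its other probe differed by 1.68 (log2) only. Tbx3, a T-box repressor active in the infundibulum, was 18.1-fold higher.

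Pax6, needed in the eye and the dorsal forebrain, was 60.6-fold lower, at -5.68 against 0.24. Mab21l1 was at least 151-fold lower and Fgf15, an FGF ligand of retina and diencephalon, was 79.3-fold lower. Lhx2, needed for both eye and cortex, was 5.39 in the SAG RAX-positive cells and 5.36 in the Wi control. Among optic stalk and cup genes, Vax1, a homeobox gene of the stalk and ventral hypothalamus, was 23.9-fold higher (0.01 against -4.57). Vax2, of the ventral retina, was 2.71-fold lower, and Cyp26a1, a retinoic acid hydroxylase, was at least 54.6-fold lower. In that list 3 of 14 detected genes were higher and 3 lower, close to the shares over all genes. Leaving out Rax, which the sort used, the eye field markers Six3 and Six6 were higher in the SAG RAX-positive cells, Lhx2 was high on both arrays, and Pax6 was lower. The 5 markers of hypothalamic progenitors other than Rax, which are Nkx2-1, Nkx2-4, Hmx2, Hmx3 and Six6, were all higher.

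Hedgehog genes were next examined by role, because SAG activates the pathway below the ligand. Shh, the ligand, had 2.55 in the SAG RAX-positive cells and -0.34 in the Wi control, 7.41-fold higher. Its level in the SAG RAX-negative cells was 2.56, the same as in the RAX-positive gate. Of the feedback targets Hhip, Gli1 and Ptch1, the first 2 passed the threshold. Hhip, the secreted antagonist, was 5.58-fold higher at 2.65 against 0.17. Gli1, the factor that is itself a direct read-out of pathway activity, was 2.50-fold higher at 3.79 against 2.48. Ptch1, the receptor and feedback inhibitor, had 1.77 and 1.07 and missed the threshold at 1.63-fold, while its other probe differed by 1.68 (log2). In the SAG RAX-negative cells none of the 3 was higher than in the Wi control: Hhip stood at 0.10, Gli1 at 2.40 and Ptch1 at 0.38. In the Wi control, which received no SAG, Gli1 and Ptch1 were both well above background.

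The remaining targets were divided. Of 19 detected ligand and target genes, 6 were higher and 6 lower, with a median difference of -0.03. Ccnd1, the cyclin, was 3.05-fold higher and Nkx2-9 was 3.01-fold higher. Nkx2-2, which marks the border of the ventral midline, was -2.02 in the SAG RAX-positive cells and -1.67 in the Wi control, within the threshold, but its other probe differed by -1.70 and the median over probes, -1.03, was past it. Foxa2, the floor plate factor, was 3.98-fold lower, at -1.12 against 0.87. Olig2 was 8.68-fold lower, with -3.55 and -0.43, and Nkx6-2 was at least 23.1-fold lower.

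Reception and transduction genes were divided too. Of 12 detected genes, 5 were higher and 4 lower, and the lower ones included all 3 co-receptors that help cells bind the ligand. Boc had -4.62 in the SAG RAX-positive cells and 1.77 in the Wi control, 83.9-fold lower. Gas1 had -1.73 and 2.27, 15.9-fold lower by the probe used, but 1 of its 3 probes differed by -0.07 and the median over probes missed the threshold. Cdon was 3.43-fold lower, at 0.55 against 2.33, and its 2 probes agreed within 0.1. Gli2, the main activator of the pathway, was not well above background in the SAG RAX-positive cells (-7.46) and stood at -0.04 in the Wi control, at least 142-fold lower. Gli3, the repressor, was 2.79 and 3.25, within the threshold. On the higher side were Lrp2, an endocytic receptor that takes up Shh in the ventral forebrain, 8.06-fold, Hhat, which palmitoylates the ligand, 6.67-fold, Scube2, which helps release it, 3.18-fold, and Smo, the transducer that SAG binds, 2.41-fold. For Hhat and Smo the median over probes missed the threshold.

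The low Gli2 level could be set against cultures of the same line on the same slide. Gli2 was not well above background in the SAG RAX-negative cells either (-6.25), whereas the activin cultures of K/l-EB5 gave -0.19 in RAX-positive and -0.78 in RAX-negative cells. Both SAG arrays therefore lay below both activin arrays and the Wi control. Boc had -2.37 in the SAG RAX-negative cells, against -1.49 and -2.29 in the activin RAX-positive and RAX-negative cells, and all 4 K/l-EB5 arrays lay below the Wi control.

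**Figure D3:**
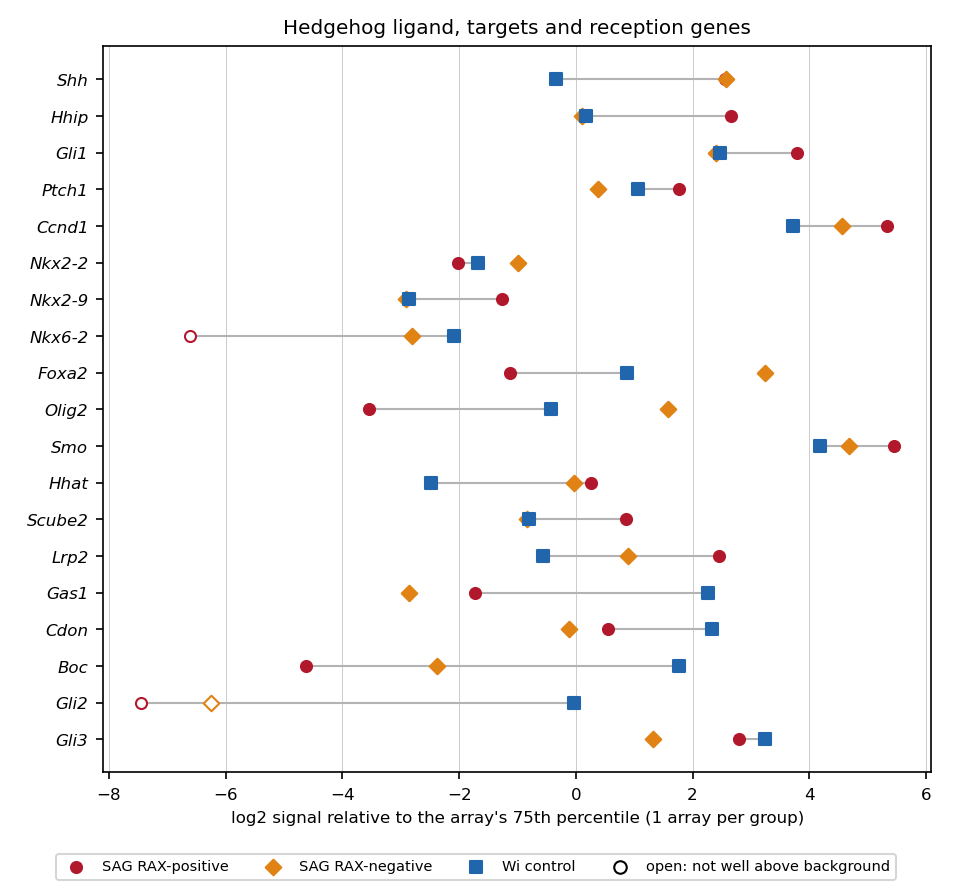
Log2 levels of 19 Hedgehog genes in the SAG RAX-positive cells (circles), the SAG RAX-negative cells (diamonds) and the Wi control (squares), relative to each array's 75th percentile, open where not well above background. Shh is equal in both SAG gates (2.55 and 2.56), Gli2 is not well above background in either, and Foxa2 and Olig2 lie on opposite sides of the Wi control in the 2 gates.

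Floor plate and basal midline genes were mostly lower in the SAG RAX-positive cells, with 5 of 16 higher, 9 lower and a median of -1.58. Slit2, an axon guidance ligand, was 7.66-fold higher and Spon1, which encodes F-spondin, was 2.58-fold higher, although Spon1 missed the threshold by the median of its probes. Lmx1a, a homeobox gene of roof plate and ventral midbrain, was 39.8-fold lower, at -4.22 against 1.10. Foxj1, a factor for motile cilia, was 5.37-fold lower and Msx1 4.79-fold lower. Corin, a protease of the midbrain floor plate, was 4.46-fold lower at -5.20 against -3.04, a call that was lost with normexp background correction.

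Dorsal telencephalic genes were lower in the SAG RAX-positive cells. None of 22 detected was higher and 18 were lower, against 19.2% over all genes, with a median difference of -3.97. Emx1, of dorsal pallium, was not well above background in the SAG RAX-positive cells (-6.05) and stood at 2.22 in the Wi control, at least 309-fold lower. Emx2 was 14.7-fold lower, at -2.42 against 1.45. Neurogenic factors of the cortex followed. Neurod6 was at least 754-fold lower (-8.33 against 2.37), Neurog2 was 409-fold lower (-5.63 against 3.05) and Neurod2 was 281-fold lower (-4.88 against 3.26). In the E12.5 cortex these 3 genes stood at 1.81, 3.84 and 2.62, and Emx1 at 2.75, each within 1 log2 unit of its level in the Wi control, while Emx2, at 3.76, was above it by more than that. Neurog2 was not particular to cortex, as it stood at 2.96 in the E12.5 diencephalon/hypothalamus. There Neurod6 (-3.63), Neurod2 (-1.52) and Emx1 (-5.94) were far below their Wi control levels.

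Ventral telencephalic genes were divided, with 7 of 18 higher and 6 lower (median -0.02), but several of the higher ones are shared with the hypothalamus. Besides Nkx2-1, Isl1 and Six3, given above, Lhx8, a cholinergic factor, was 11.9-fold higher (-1.53 against -5.10). Ebf1 was 61.8-fold lower, Olig1 28.5-fold lower, Meis2 7.22-fold lower and Sp8 6.53-fold lower. Ebf1, Meis2 and Sp8 belong to striatal or olfactory precursors and Olig1 to the ventral oligodendrocyte lineage.

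Genes of more posterior brain regions were low in the SAG RAX-positive cells. In the thalamic, prethalamic and pretectal list 13 of 16 were lower and 1 was higher, with a median of -2.14. Irx1 was 28.2-fold lower, at -3.57 against 1.25, Gata3 24.97-fold lower and Irx2 20.2-fold lower, while Dbx1, which the hypothalamus also uses, was 4.64-fold higher. In the midbrain, hindbrain and spinal cord list 15 of 18 were lower, 1 was higher, and the median was -3.999. With normexp background correction that median was -0.84 relative to all detected genes. Pax3, a dorsal neural tube and neural crest gene, was 29.7-fold lower, En2, of the midbrain-hindbrain border, was 24.2-fold lower, and Hoxc6 was at least 26.8-fold lower. Only 8 of the 21 genes of that list were well above background in the SAG RAX-positive cells, against 18 in the Wi control. The exception was Egr2, at -0.08 against -2.99 and 7.49-fold higher, which is a hindbrain gene and also an immediate-early gene. Egr1 and Fos, immediate-early genes that respond to cell handling, were 4.12-fold and 2.32-fold higher in the sorted cells. The part of the sort in these differences was not tested.

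**Figure D4:**
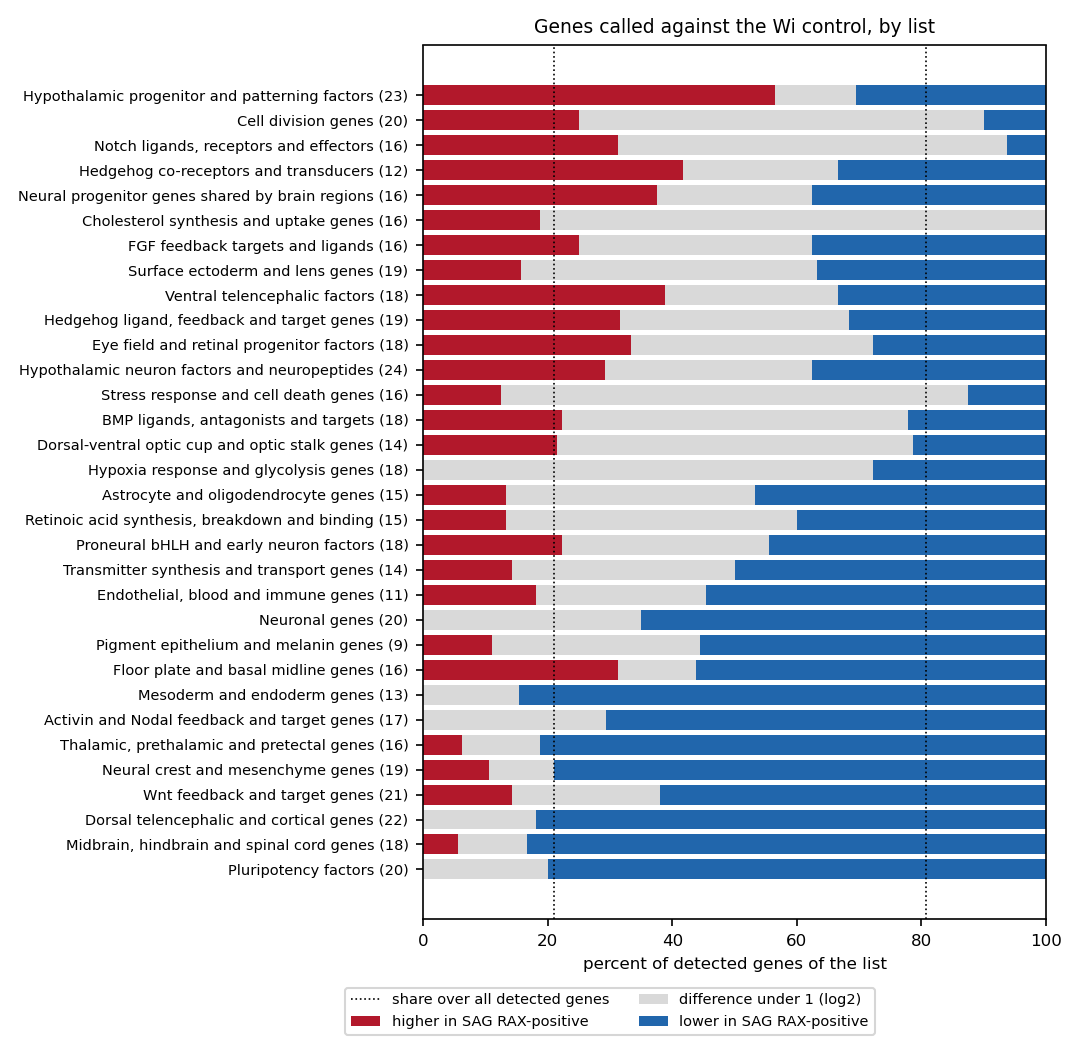
Percent of the detected genes of each list that were higher (red, from the left), within the threshold (grey) or lower (blue, from the right) in the SAG RAX-positive cells than in the Wi control, with the number detected in brackets and dotted lines at the shares over all detected genes. Lists run from the highest median difference at the top, hypothalamic progenitor factors, to the lowest, pluripotency factors.

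Both cultures received the Wnt inhibitor. Wnt feedback and target genes were lower in the SAG RAX-positive cells. Of 21 detected, 13 were lower and 3 higher, with a median of -2.60. T, the mesodermal factor Brachyury and a Wnt target, was at least 330-fold lower (-7.82 against 1.18). Wif1, a secreted Wnt antagonist, was at least 41.8-fold lower, Sfrp5 was 24.0-fold lower and Tnfrsf19 was 21.1-fold lower. Axin2, the most widely used read-out of the pathway, was 8.19-fold lower at -3.50 against -0.47, but its other probe differed by -0.35. The 3 higher genes were Ccnd1, given above, the E3 ligase gene Znrf3, 2.38-fold, and Dkk4, a secreted antagonist, at least 1.46-fold. The bound of Dkk4 lay below the threshold, and its call was lost with normexp and with the authors' own values. Znrf3 lost its call with normexp. Rspo2, an R-spondin that amplifies Wnt signals, had -5.24 in the SAG RAX-positive cells and 3.33 in the Wi control, 378-fold lower.

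Activin and Nodal feedback and target genes were also lower, with none higher and 12 of 17 lower (median -2.07). Lefty1, the Nodal antagonist, was not well above background in the SAG RAX-positive cells (-6.46) and stood at -0.02 in the Wi control, at least 86.9-fold lower. Cer1 was at least 38.8-fold lower, Inhbb, the activin B subunit, 21.0-fold lower, and Eomes 15.3-fold lower. Neither group received activin. Several of these genes are also active in pluripotent and primitive streak cells, whose markers were low in the SAG RAX-positive cells as well and are given below. Eomes and Inhbb also stood at 2.31 and 1.35 in the E12.5 cortex, against 1.67 and 1.43 in the Wi control. Lefty1 and Cer1 were low in that cortex, at -5.66 and -6.85. The part of pluripotent, primitive streak or cortical cells in the Nodal and Wnt lists was not tested.

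BMP genes were even, with 4 of 18 higher and 4 lower, near the 21% and 19.2% over all detected genes. Bmp2, a ligand, was 8.69-fold lower, while Smad6 and Id3, feedback targets, were 2.96-fold and 2.94-fold higher. FGF ligands differed in both directions. Fgf18, Fgf9 and Fgf8 were 6.24-fold, 5.31-fold and 2.95-fold higher, with Fgf10 given above, whereas Fgf15, given above, and Fgf3, at least 2.93-fold, were lower. Fgf4, counted with the pluripotency genes, was lower as well. Etv4 and Etv5, transcription factors that follow FGF receptor activity, were 16.1-fold and 11.2-fold lower, and the feedback inhibitor Spry4 was at least 13.2-fold lower. Over that list 4 of 16 were higher, near the share over all detected genes, and 6 lower. Notch genes were higher in 5 of 16 and lower in 1 (median 0.59). Dll1, Hes1, Notch3 and Dll3 were 3.00-fold, 2.52-fold, 2.44-fold and 2.42-fold higher. Retinoic acid genes were lower in 6 of 15 and higher in 2. Dhrs3, a feedback reductase, was 39.95-fold lower and Cyp26b1 10.4-fold lower.

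General neural progenitor genes were divided, with 6 of 16 higher and 6 lower in the SAG RAX-positive cells. Nes, the intermediate filament gene nestin, was 4.46 in the SAG RAX-positive cells and 2.99 in the Wi control, 2.76-fold higher, and Prom1 was 2.87-fold higher. Fabp7, a radial glia lipid-binding protein that was bright in the Wi control, was 30.5-fold lower (2.18 against 7.11), Slc1a3, a glial glutamate transporter, was 10.2-fold lower and Ednrb 8.72-fold lower. Pax6, given above, is also among the lower ones. Of 20 cell division genes 5 were higher, near the 21% over all detected genes, and 2 were lower (median 0.69). Mki67, the Ki-67 gene, was 2.79-fold higher, at 5.95 against 4.46, Rrm2 4.66-fold higher and Mcm6 2.85-fold higher. The mitotic kinase gene Aurkb was 6.42-fold lower and Ccne2 at least 3.01-fold lower.

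Neuronal genes were lower. None of 20 was higher and 13 were lower, with a median of -1.52, and all 20 were well above background on both arrays. Tubb3, the neuronal tubulin, was 4.92 in the SAG RAX-positive cells and 5.54 in the Wi control, within the threshold. Myt1l, a neuronal zinc finger factor, was 16.1-fold lower, Gap43, of growing axons, 10.67-fold lower, and Nefl, a neurofilament, 7.71-fold lower. Transmitter genes were lower in 7 of 14 and higher in 2. Slc17a7, the vesicular glutamate transporter of cortex, was at least 39.8-fold lower, and Gad1, a GABA synthesis enzyme, 7.05-fold lower.

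Proneural genes included a large difference in the other direction. Neurog3, known in the brain from the ventral hypothalamus, had 4.61 in the SAG RAX-positive cells and -1.43 in the Wi control, 65.7-fold higher. Its level was 2.54 in the SAG RAX-negative cells, 0.18 in the activin RAX-positive cells and 2.17 in the E12.5 diencephalon/hypothalamus. Of the other 17 detected proneural and early neuron genes, Onecut2 and Onecut1 were just past the threshold at 2.10-fold and 2.04-fold, whereas Pou4f2 was at least 48.3-fold lower and Ebf3 22.2-fold lower. In all, 4 of 18 were higher, near the 21% over all detected genes, and 8 lower.

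Among glial genes, 2 of 15 were higher and 7 lower. Gpr17, an oligodendrocyte precursor receptor, was 23.3-fold higher (0.73 against -3.81), while the precursor genes Pdgfra and Sox10 were lower. Aldh1l1 and Aldoc, astrocyte genes, were 36.7-fold and 13.9-fold lower.

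Markers of cells outside the neural lineage were checked because the Wi control is not reported as sorted. Pluripotency genes gave the largest downward shift: none of 20 was higher, 16 were lower, and the median difference was -4.55. Dppa5a, an ES cell gene, was 699-fold lower (-2.60 against 6.85), Fgf4 at least 263-fold lower (-6.00 against 2.04) and Zfp42, or Rex1, 192-fold lower (-5.77 against 1.82). Pou5f1, which encodes Oct4, had -5.05 in the SAG RAX-positive cells and 1.80 in the Wi control, 115-fold lower. Nanog was within the threshold by its brightest probe, while its 3 probes ranged from -6.2 to 0.8 (log2). The summed relative signal of the list was 15.1 in the SAG RAX-positive cells and 194.4 in the Wi control, and 17 and 20 of its 20 genes were well above background. Such a sum adds signals of different probes, and Dppa5a alone made up most of it in the Wi control. In these pools, fewer pluripotent cells and less RNA per cell cannot be told apart.

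Most other non-neural lists leaned the same way. Of 13 detected mesoderm and endoderm genes 11 were lower and none higher, Sox17 at least 50.6-fold, and the summed signal was 6.04 in the SAG RAX-positive cells against 19.09 in the Wi control. Of 19 neural crest and mesenchyme genes 15 were lower and 2 higher, with summed signals of 4.07 and 14.6. Tfap2b, a neural crest factor, was at least 313-fold lower, Foxd3 at least 15.8-fold lower and Col3a1, a fibrillar collagen, 21.2-fold lower, whereas Lum and Snai2 were 6.67-fold and 3.57-fold higher. Of 19 surface ectoderm and lens genes 3 were higher, Cryba1, a lens crystallin, at 15.6-fold, and 7 were lower, with summed signals of 9.05 and 38.9. The median difference of that list, 0.028, was near the 0.08 over all detected genes. The epithelial members were low: Cdh1, or E-cadherin, was 64.8-fold lower, Krt8 35.4-fold, Krt18 19.7-fold and Epcam 10.1-fold. These 4 are also expressed by ES cells. Of 9 detected pigment genes 5 were lower and 1 higher, and of 11 endothelial and blood genes 6 were lower and 2 higher. The summed signals of these lists were 1.10 against 2.20 and 5.90 against 11.4, and the defining endothelial gene Pecam1 was within the threshold. All these sums weigh the brightest probes most, and Krt18 and Krt8 made up most of the surface ectoderm and lens sum in the Wi control. The part of any of these cells in the regional differences was not tested.

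Metabolic and stress genes had few calls, where 21% of all detected genes were higher and 19.2% lower. Of 16 cholesterol synthesis genes none was lower and 3 were higher, among them Insig1, a feedback regulator of sterol synthesis, at 2.20-fold. Of 18 hypoxia and glycolysis genes 5 were lower, Ndrg1 at 5.75-fold and Adm at 4.61-fold, and none was higher. Of 16 stress and cell death genes 2 were higher and 2 lower, with Chac1, an unfolded protein response target, 8.59-fold lower.

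Genes with the largest differences outside the fixed lists were of mixed function. On the higher side, Gpr50, an orphan relative of the melatonin receptors found in the hypothalamic tanycytes and infundibulum, was at least 117-fold higher, with 0.54 in the SAG RAX-positive cells and -8.48 in the Wi control. Plagl1, an imprinted zinc finger gene, was 106-fold higher (6.11 against -0.62), but its 4 probes ranged from 0.74 to 6.87 (log2). Dnah10 was 83.5-fold higher by the probe used, but its 3 probes ranged from 1.93 to 6.38 (log2) with a median of 1.93. Me3 was 34.5-fold higher, with 3 probes from 0.77 to 5.64. Peg13 and Tecrl, with 64.5-fold and at least 34.2-fold, complete the 15 highest. On the lower side, Tnfsf10, which encodes the death ligand TRAIL, was at least 904-fold lower (-8.39 against 2.63). Pla1a was at least 371-fold lower, Slc14a2, a urea transporter, 347-fold, Patl2 at least 324-fold and Nrn1, or neuritin, 274-fold by one probe and by -1.88 (log2) by the other.

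The remaining arrays include a RAX-positive gate of the same line on the same slide that received activin in place of SAG. Nkx2-1 was 4.82 and 4.30 in the SAG RAX-positive and RAX-negative cells, 1.34 in the activin RAX-positive cells and 3.09 in the E12.5 diencephalon/hypothalamus, against -8.33 in the Wi control. Hmx3 was 1.503 and 2.35 in the SAG gates and -3.17 in the activin RAX-positive cells, against -5.61 in the Wi control. Both genes were within 1 log2 unit between the gates of the SAG cultures, and lower with activin. Six6 was 1.19 in the SAG RAX-positive cells, -1.12 in the SAG RAX-negative cells, 2.15 in the activin RAX-positive cells and -1.55 in the activin RAX-negative cells, against -8.32 in the Wi control. Pou5f1 was low in both SAG gates, at -5.05 in RAX-positive and -3.83 in RAX-negative cells. It was -3.60 in the activin RAX-positive cells and 3.85 in the activin RAX-negative cells, against 1.80 in the Wi control. These comparisons share the Wi control array and are descriptions of single arrays.

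**Figure D5:**
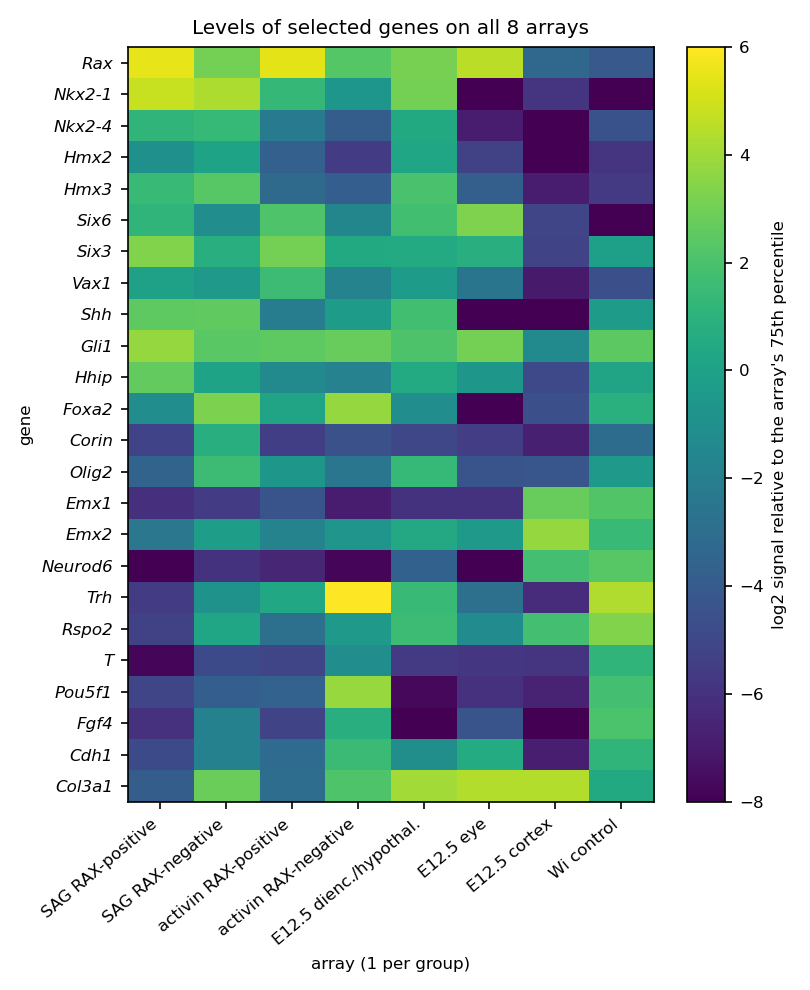
Log2 levels of 24 genes (rows) on all 8 arrays (columns, 1 per group), relative to each array's 75th percentile, with brighter colours for higher levels and the scale ended at -8 and 6. The hypothalamic genes from Nkx2-1 to Hmx3 are bright in both SAG gates and in the E12.5 diencephalon/hypothalamus, and the cortical genes Emx1 and Neurod6 are bright in the E12.5 cortex and the Wi control.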

How the data were processed

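RNA was hybridised to 1-colour Agilent arrays (62976 spots). Per the file headers, the deposited intensity values are processed signals from Agilent Feature Extraction 10.7.3.1 on probes placed on mm9; the submitters' processing notes name version 9.1 and limma. The authors' deposited log2 value table was an alternative. Control spots and outlier spots were left out (262 probes lost every spot on some array), repeated spots averaged, and log2 signals set relative to each array's 75th percentile. Genes took the symbol of their RefSeq accession (27927 probes) or of the file, and the probe brightest over the 8 arrays. Detection used the deposited flag (other) for signal well above background. Python 3.11.15, numpy 2.4.6, pandas 2.3.3, R 4.3.3 and limma 3.58.1 (normexp, offset 50) were used. The calling rule was run on simulated data that held the scanner's error only, with shifts larger than the threshold in genes away from the floor. That run cannot show how calls fare with the spread between cultures, near the threshold or at low levels. With 1 array a group, arrays limit the precision and no test was made. Named genes were the 15 highest and 15 lowest called genes with a proper symbol and 1 sign under every scaling, up to 4 per list and direction, and 27 genes always named; further list members and genes are named for comparison and were chosen after their values were seen. The members and lists were chosen with earlier results of these data known. Setting bounded genes at their bound moved no list median by more than 0.79 (log2). Some genes that this rule names, and 1 probe sequence, are not reported here, although counts and medians include those genes.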

Additional observations from a re-analysis of the deposited data

Results flagged for a closer look

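There were 6 genes reported here that lay on opposite sides of the Wi control in the gates of the SAG cultures, called lower in the SAG RAX-positive cells and higher in the SAG RAX-negative cells. The difference between the gates was not tested, since each is 1 array, and both comparisons share the Wi control array. For Foxa2, the floor plate factor, the log2 difference from the Wi control was -1.99 in the SAG RAX-positive cells and 2.37 in the SAG RAX-negative cells. For Corin, of the floor plate, it was -2.16 and 3.81. Olig2, of the ventral oligodendrocyte and motor neuron lineages, gave -3.12 and 2.00. The last 3 are genes of mesenchyme or matrix: Foxc2 gave -3.85 and 3.12, Col3a1 -4.41 and 2.31, and Vtn, which encodes vitronectin, -3.72 and 2.27. Foxc2 was not well above background in the SAG RAX-positive cells, and Foxc2 and Corin lost the lower call with normexp background correction.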

How the results depend on the processing

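No paired analysis was possible because each group had 1 array. The split between higher and lower genes rested on the processing. Of called genes 52.2% were higher; the share was 53.7% with median scaling, 47.3% with quantile normalization, 46.0% with normexp, 43.2% in the authors' value table, 49.3% with both arrays above background, 58.3% with no filter on dim probes, 45.1% at a log2 difference of 2 and 55.9% with the median over probes. Higher and lower genes numbered 2588 and 3037 with normexp, and 1985 and 2415 at a difference of 2, and the authors' table gave 3427 higher genes. The median difference of all detected genes stood between 0.015 and 0.16. Of 160 list medians recomputed with another scaling, background correction, value table or probe rule, 153 moved little, 7 moved and none reversed. For list medians, moving little meant a move of less than 1 (log2). A change of sign counted as reversed only where the list's median lay at least 1 (log2) from that of all detected genes. Sign changes of lists nearer to it were therefore not counted. The largest move was that of midbrain, hindbrain and spinal cord genes, whose median relative to all detected genes was -4.08 and became -0.84 with normexp, -2.15 in the authors' table and -2.72 with the median over probes. Of 196 named genes called, 194 kept their call with quantile normalization, 186 in the authors' table, 187 with the median over probes and 171 with normexp. Requiring both arrays above background kept 154, losing by its construction genes such as Nkx2-1, Six6, Gli2, Emx1 and Neurod6, and a difference of 2 kept 149. Of the named genes' differences recomputed in the same way as the list medians, 797 moved little, 207 moved and 1 reversed. The reversed one was Crygc, at -0.41 with the median over probes. Folds given as at least are bounds for the main processing only. Nkx2-1, with a bound of 11.16 (log2), differed by 8.42 with normexp and 10.15 in the authors' table. Gli2, with a bound of -7.149, differed by -3.375 and -4.99. The cause of these moves was not tested. Of the calls lost with normexp, Foxc2 was not well above background in the SAG RAX-positive cells, and Corin was above background on both arrays.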

Other observations

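Lists added after the values were seen describe further groups and support nothing. Of 33 detected imprinted genes, expressed from 1 parental allele, 19 were higher in the SAG RAX-positive cells and 4 lower, with a median difference of 1.33 against 0.08 over all detected genes. Besides Plagl1 and Peg13, Kcnq1ot1, a long non-coding RNA, had 3.06 in the SAG RAX-positive cells and -1.95 in the Wi control, and Nnat, or neuronatin, had 6.45 and 1.56. Mest had 7.29 and 3.83, Dlk1, a Notch-like ligand, 7.21 and 3.83, and Meg3, a long non-coding RNA of the same cluster, 6.94 and 4.87. Igf2, the fetal growth factor, was the other way at -3.98 and -0.69. The high levels were not confined to the SAG RAX-positive array: Nnat stood at 6.92 in the SAG RAX-negative and 6.76 in the activin RAX-positive cells, and Mest at 6.86 and 7.40, all of them on the slide that did not hold the Wi control. On that same slide, Nnat stood at 5.075, 6.435 and 4.306 in the E12.5 cortex, diencephalon/hypothalamus and eye. Mest stood at 5.82, 6.123 and 6.232 there. Line, slide, sort and added factor differ together between these cultures and the Wi control and cannot be told apart.

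Of 13 detected germline and meiosis genes 9 were lower and 1 higher. Sycp3, of the synaptonemal complex, had -5.58 in the SAG RAX-positive cells and 2.07 in the Wi control, and Mael -6.12, not well above background, and -0.08. Of 27 detected Wnt ligands, R-spondins and Frizzled receptors, 12 were lower and 5 higher. Over all detected genes 19.2% were lower and 21% higher, so the higher count was near that share. Rspo3 followed Rspo2, at -4.52 in the SAG RAX-positive cells and 3.27 in the Wi control. Fzd4, a receptor, was higher at 0.23 against -2.62, and Wnt5a, a ligand that acts outside the beta-catenin pathway, was 2.55 and 0.75.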
